A study of Mus musculus with 4 samples.

Results

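The genes of the proteasome were followed in pooled sympathetic ganglia of adult mice, namely the superior cervical ganglion of the neck and the stellate ganglion at the top of the chest. They were the 46 rows of the deposited table whose symbol begins with Psm, a letter from a to g and a digit, out of 21937 rows. The pattern finds 49 rows, and the interferon-induced Psmb8, Psmb9 and Psmb10 were left out and are described beside the subunits they replace. Of the 46 genes, 43 reached a mean of 50 over the 2 columns of the table, the minimum used here, and Psma8, Psmb11 and Psmc3ip fell under it.

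The proteasome is the large protease that breaks down proteins tagged with ubiquitin. Its barrel-shaped core particle is built of alpha rings, which form the gate, and beta rings, which carry the cutting sites. A regulatory particle on its end recognises the ubiquitin chain, removes it, unfolds the protein and threads it into the core. Neurons depend on it for protein turnover in long axons and at synapses, and interferon exchanges its cutting subunits for induced counterparts.

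Per the labels, the series holds 4 samples of postnatal day 60, 1 pool for each of 4 genotypes. The Hand2 mutant was B6.129/SVJHand2flox/del::C57BL/6P1DbhCreERT2, a pool of 16 ganglia from 4 mice, and the Gata3 mutant was B6.126/SV129Gata3flox/flox::C57BL/6P1DBhCreERT2, a pool of 32 ganglia from 8 mice. The Hand2 control was B6.129/SVJHand2flox/+::C57BL/6P1DbhCreERT2 and the Gata3 control B6.129/SV129Gata3flox/+::C57BL/6P1DbhCreERT2, each a pool of 16 ganglia from 4 mice. All groups, the controls included, carried the tamoxifen-dependent Cre recombinase under the promoter of dopamine beta-hydroxylase (Dbh), received tamoxifen for 10 days and kept a floxed allele. That promoter drives Cre in noradrenergic cells, while the pools also hold glia and other cells. The design text describes the ganglia of the Gata3 mutant as rudiments whose remaining cells had escaped the deletion.

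The table holds a single comparison of 2 value columns and names no line. The column set against the control is called side B, and the control column is called side A. No sample was assigned to either, and with 1 column per side no difference has a replicate check or a test. "Higher" and "lower" below describe these columns only. The values summed to 19135221 on side B and 19343986 on side A, and it is not known if they are totals of reads. In bulk tissue, fewer cells of a type and less RNA per cell cannot be told apart.

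Of the genes targeted in the lines, Hand2 had 2001 on side B and 4749 on side A, and Gata3 had 1050 on side B and 1105 on side A. The labelled tissue carried its defining markers, with Th at 44280 on side B and 47123 on side A and Dbh at 89194 on side B and 102922 on side A. All 5 noradrenergic markers were lower on side B (summed value 255797 on side B and 303816 on side A), and 4 of 5 glial markers were higher (26132 on side B and 23152 on side A). All 5 sensory neuron markers were lower on side B (13172 on side B and 14337 on side A). Avil made up most of these sums, with 12975 on side B and 13534 on side A. Among the others, Slc17a6 had 7 on side B and 128 on side A, and P2rx3 had 113 on side B and 377 on side A. Of the 5 fibroblast markers, 4 were lower (summed value 17299 on side B and 18025 on side A). The sides also differed in skeletal muscle markers (summed value 49 on side B and 1086 on side A, 5 of 5 lower) and in sex-linked genes, with 4 Y-linked genes listed at 0 on side B and Xist at 1595 on side B and 114 on side A. The part of these differences in the values of the proteasome genes was not tested.

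Most proteasome genes above the minimum were slightly higher on side B. Against genes of like transcript length this did not hold, but against genes of like coding length it did. Of the 43 members, 34 were higher on side B and 9 lower, where 50.3% of all 12043 genes above the minimum were higher and 48.8% lower. The median log2 ratio of side B to side A, with a pseudocount of 1, was 0.05 in the members and 0.0026 in all genes. Less the median log2 ratio of the 500 genes nearest in transcript length, 17 members were higher and 26 lower, and the median turned to -0.02. By coding length, a comparison added after seeing the data, 30 were higher and 13 lower, with a median of 0.03. Members ranged from -0.08 for the activator gene Psme4 to 0.31 for the assembly factor gene Psmg4. None of the 43 was at least 25% higher on side B, against 4.35% of all genes, and none was at least 20% lower, the same fold in the other direction, against 5.62% of all genes. At a fold of 1.1, 10 members were higher, against 20.1% of all genes, and none was lower, against 19.0% of all genes. The count of higher members past 1.1-fold was thus near the share over all genes, and the count of lower ones was below it. Among 639 genes within the ranges of length and mean value of the ring subunits, 19.9% were higher and 5.48% lower at that fold. Past 25% higher and 20% lower, their shares were 0.939% and 1.1%. That background matches the ring subunits only, not all members, and was chosen after seeing the data. Within the range of member transcript lengths, 21.2% of genes were higher and 17.8% lower at a fold of 1.1. Within the range of member mean values, these shares were 18.9% and 17.5%. Together the 46 genes took 0.579% of the summed values on side B and 0.552% on side A. For all 46 members the adjusted p-value is 1 in the authors' deposited table, where 0.49% of the genes above the minimum have one under 0.05. The smallest unadjusted p-value there is 0.169, that of Psma2. None of the members has an unadjusted p-value under 0.05 there, where 0.614% of the genes above the minimum are higher on side B and 1.99% lower with such a p-value.

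**Figure D1:**
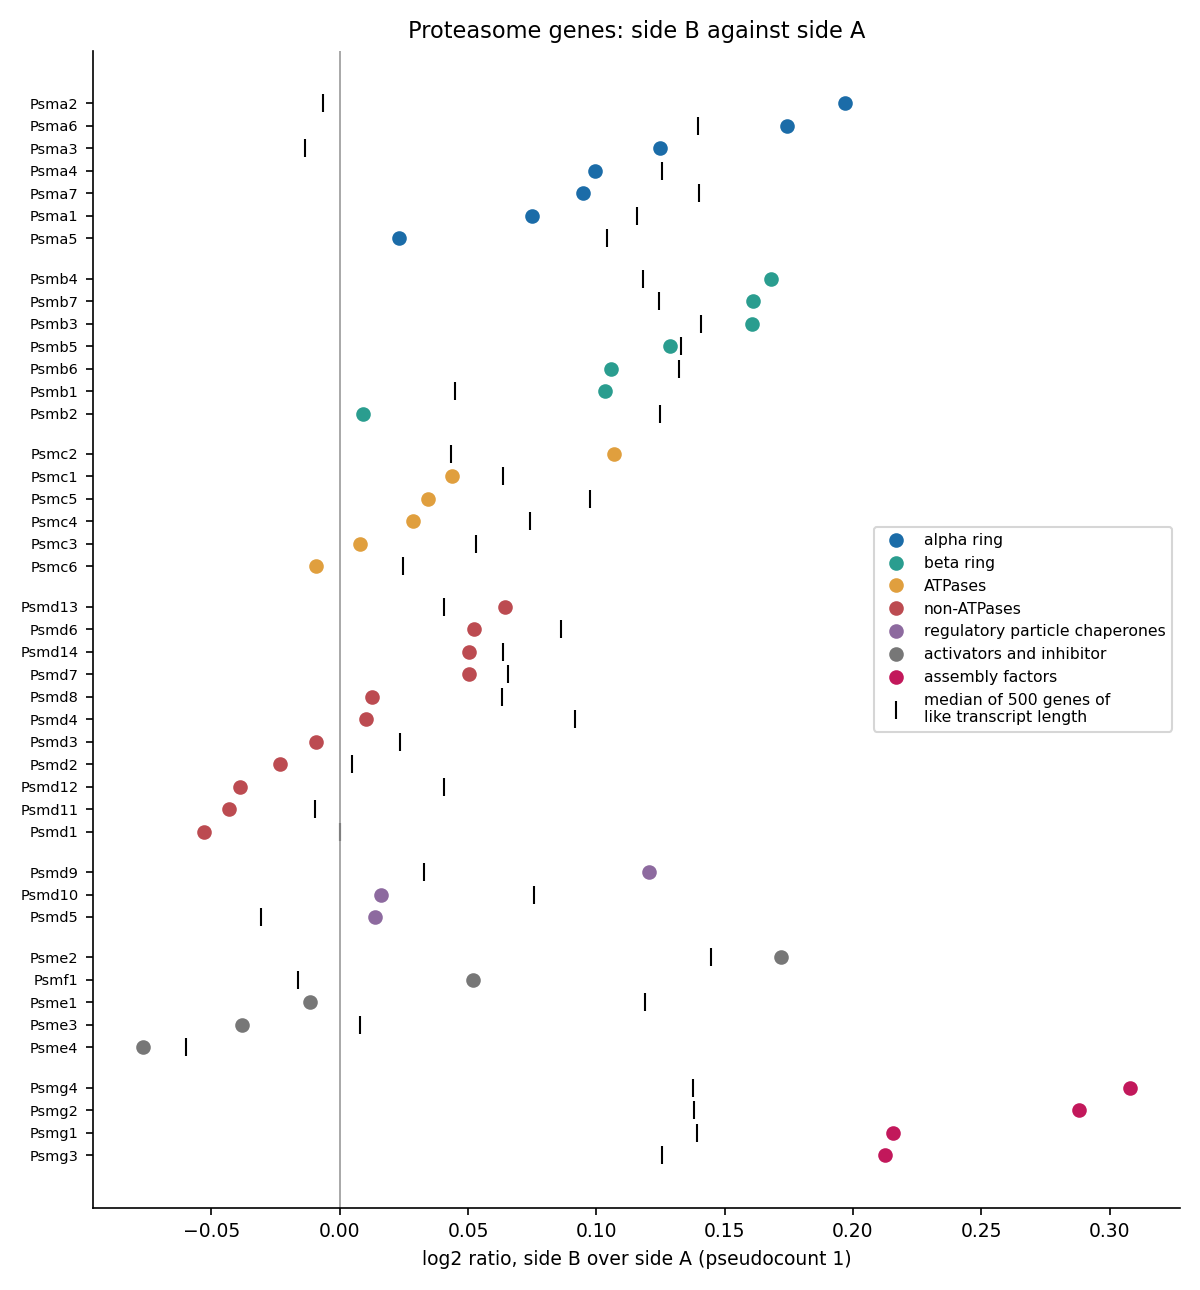
Each point is the log2 ratio of side B to side A of a proteasome gene above the minimum, on the horizontal axis, with genes down the page grouped by part of the complex. The black tick is the median log2 ratio of the 500 genes nearest in transcript length. All alpha ring, beta ring and assembly factor genes lie right of 0, and the regulatory particle genes lie on either side of it.

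All 7 alpha ring genes above the minimum, which form the gate of the core, were higher on side B. Psma1 to Psma7 had a median log2 ratio of 0.10, and their summed value was 19049 on side B and 17605 on side A. Less the median of genes of like length, 3 of the 7 lay above and 4 below, and the median turned to -0.03. Of the 7, 5 had transcripts of up to 1326 bases, and 80.4% of all genes that short were higher on side B. Psma2 had the highest ratio of the ring, with 3015 on side B and 2630 on side A, a log2 ratio of 0.20. Psma5 had the lowest, with 2898 on side B and 2852 on side A, a log2 ratio of 0.02. Psma5 was thus nearly equal on the sides, and the other members lay between it and Psma2. Psma1 had 2514 on side B and 2387 on side A, and Psma3 had 3067 on side B and 2813 on side A. Psma4 had 2284 on side B and 2132 on side A, and Psma6 had 2883 on side B and 2555 on side A. Psma7 had 2388 on side B and 2236 on side A. The log2 ratios of the ring thus all lay between 0.02 and 0.20. Psma8, a form of Psma7 made in testis, had 2 on side B and 4 on side A, and so was near 0 on either side.

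All 7 beta ring genes above the minimum, which include the cutting subunits, were likewise higher on side B, as were 50.3% of all genes. Their median transcript was 899 bases, and 80.4% of all genes of up to 1326 bases were higher on side B. Psmb1 to Psmb7 had a median log2 ratio of 0.13 and a summed value of 22153 on side B and 20286 on side A, a ratio of sums of 1.09. Less the median of genes of like length, 4 lay above and 3 below, at a median of 0.02. Psmb5, the subunit that cuts after hydrophobic residues, had 2344 on side B and 2144 on side A (log2 ratio 0.13). Psmb6, which cuts after acidic residues, had 3057 on side B and 2841 on side A (0.11). Psmb7, which cuts after basic residues, had 4644 on side B and 4153 on side A (0.16). Genes of like length had median log2 ratios of 0.13, 0.13 and 0.12, so that the 3 catalytic genes lay at -0.0045 for Psmb5, -0.03 for Psmb6 and 0.04 for Psmb7 relative to them.

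Among the structural beta subunits the highest ratio was that of Psmb4, with 3822 on side B and 3402 on side A (0.17). Psmb2 stood lowest of the ring, with 1766 on side B and 1755 on side A (0.01), so its sides were nearly equal. Psmb1 had 4356 on side B and 4055 on side A, and Psmb3 had 2164 on side B and 1936 on side A. Psmb11, the beta subunit of the thymus epithelium, had 7 on side B and 15 on side A.

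Proteasome genes are known targets of Nfe2l1, a transcription factor that raises their expression when the proteasome is inhibited and binds antioxidant response elements. The promoters of the members were therefore searched for the core of that element, TGACNNNGC, and for the CCAAT box, a common promoter element, on both strands. The sequences were those of RefSeq on GRCm38.p6, from 250 bases before to 50 after each start, and 38 of the 46 members matched by symbol. Psma8, Psmb1, Psmb2, the catalytic Psmb7, Psmc3, Psmd3, Psmd7 and Psmg2 had no match and were not searched. The TGACNNNGC core was found in 6 of the 38, or 15.8%, against 14.0% of 27025 genes with a promoter of the same length. CCAAT was found in 14, or 36.8%, against 41.1%. None of the 38 held both. The shares of the members were thus near those of all genes, and a match of letters shows no binding. The promoters of the catalytic subunits Psmb5 (chr14:54617946-54618245, minus strand) and Psmb6 (chr11:70525107-70525406, plus strand), shown because both held the core near their start, read 5′ to 3′ along the gene with the core in capitals:
Psmb5: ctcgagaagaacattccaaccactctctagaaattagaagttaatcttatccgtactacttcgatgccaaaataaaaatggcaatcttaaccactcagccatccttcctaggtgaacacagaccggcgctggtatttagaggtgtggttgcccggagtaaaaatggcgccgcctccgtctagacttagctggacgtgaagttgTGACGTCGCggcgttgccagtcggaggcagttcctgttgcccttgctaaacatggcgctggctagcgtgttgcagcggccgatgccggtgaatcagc
Psmb6: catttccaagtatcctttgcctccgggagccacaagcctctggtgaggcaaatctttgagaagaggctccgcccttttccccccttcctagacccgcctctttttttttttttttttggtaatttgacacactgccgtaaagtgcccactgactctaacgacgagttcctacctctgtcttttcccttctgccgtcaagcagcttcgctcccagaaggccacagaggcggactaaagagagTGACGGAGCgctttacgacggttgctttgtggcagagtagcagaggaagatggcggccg

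The 6 matches are set side by side for comparison, each read along its core, with up to 10 bases on either side and the core in capitals. The stretch of Psmd12 is short because its match lies at the edge of the window.
Psmb5: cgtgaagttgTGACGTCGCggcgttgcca
Psmb6: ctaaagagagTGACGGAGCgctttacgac
Psmc6: gagcaatgccTGACTTAGCtactggctgg
Psmd9: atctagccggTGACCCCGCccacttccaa
Psmd12: ggggcaaatgTGACACAGCaga
Psme4: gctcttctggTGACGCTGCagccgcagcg

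These stretches lie on GRCm38.p6, Psmb5 at chr14:54618024-54618052 on the minus strand, Psmb6 at chr11:70525338-70525366 on the plus strand, Psmc6 at chr14:45329587-45329615 on the minus strand, Psmd9 at chr5:123228149-123228177 on the plus strand, Psmd12 at chr11:107479278-107479299 on the minus strand and Psme4 at chr11:30771758-30771786 on the minus strand. Relative to the start of the gene, the first base of the match in reading direction of the gene lay at -47 in Psmb5, -9 in Psmb6, -31 in Psmd9, -7 in Psme4, -227 in Psmc6 and -247 in Psmd12. Of the 6 genes with the core, Psmb5, Psmb6 and Psmd9 were higher on side B and Psmc6, Psmd12 and Psme4 lower. This split was near the shares over all genes, 50.3% higher and 48.8% lower. Psmc6 was nearly equal on the sides and turned to higher with the columns scaled to equal sums.

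The interferon-induced subunits stood below the constitutive ones in level on both sides. Levels of different genes were set side by side as the value per kb of transcript, using the annotated principal transcript. Psmb8, which takes the place of Psmb5, had a value of 903 on side B and 840 on side A. Per kb it made up 17.5% of the pair on side B and 17.8% on side A. Psmb9, the counterpart of Psmb6, had 255 on side B and 199 on side A, and made up 4.69% of its pair on side B and 3.97% on side A. Psmb10, the counterpart of Psmb7, had 966 on side B and 828 on side A, and made up 15.5% of its pair on side B and 15.0% on side A. The constitutive subunit had from 4.62 to 24.2 times the value per kb of its counterpart over the 3 pairs and both sides. These folds and shares depend on the annotated transcripts, of 1628, 1352 and 1311 bases for Psmb8, Psmb9 and Psmb10. Those of Psmb5, Psmb6 and Psmb7 are shorter, at 899, 798 and 1160 bases, so the undivided values stand closer. Of these 3 genes, Psmb9 was past 25% higher, at a log2 ratio of 0.36, with an unadjusted p-value of 0.275 and an adjusted one of 1 in the authors' deposited table. Macrophages, which express the induced subunits, had all 5 of their markers higher on side B, with a summed value of 1799 on side B and 1364 on side A and none at 0. Their part in the values of Psmb8, Psmb9 and Psmb10 was not tested.

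**Figure D2:**
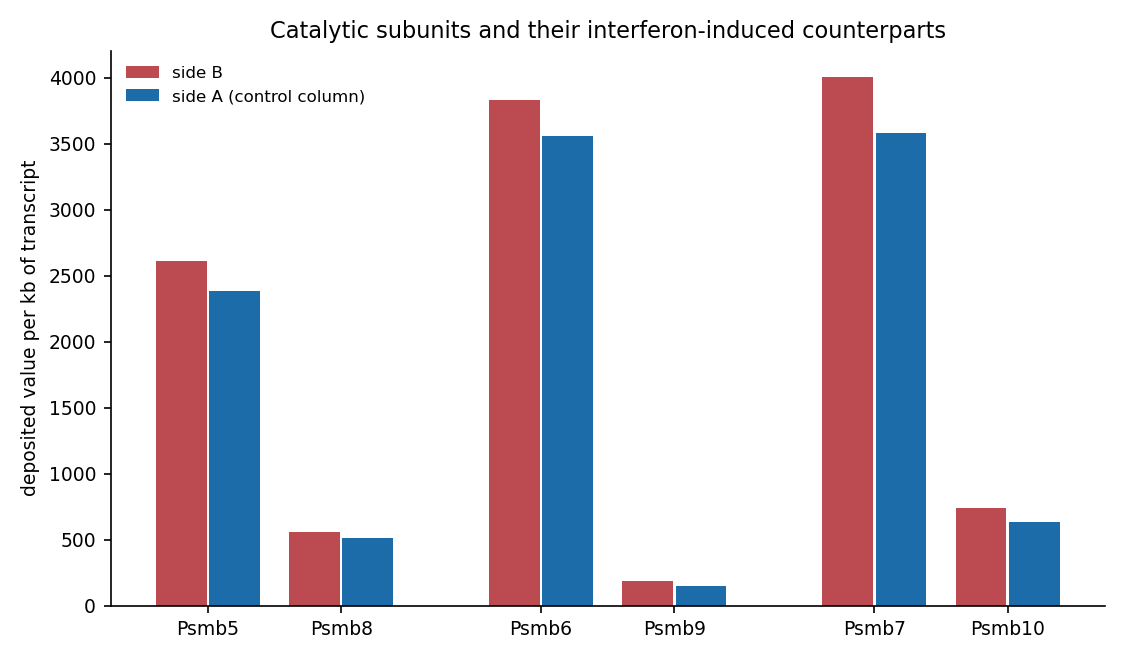
Bars give the deposited value per kb of transcript of the constitutive catalytic subunits and of their interferon-induced counterparts, side B in red left of side A in blue, 1 column per side without error. In each pair the constitutive gene stands far above its counterpart, from 4.62-fold for Psmb5 on side A to 24.2-fold for Psmb6 on side A.

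The ATPase genes of the regulatory particle, whose products form the ring that unfolds substrates, lay close to equal on the sides. Of the 6, 5 were higher on side B and 1 lower, with a median log2 ratio of 0.03, and Psmc6 turned to higher with the columns scaled to equal sums. Over all genes, 50.3% were higher. Against genes of like transcript length, 1 ATPase gene lay above and 5 below, and the median turned to -0.04. By coding length, a comparison added after seeing the data, the median stayed above 0, at 0.0255. Psmc2 had the highest ratio, with 3682 on side B and 3419 on side A (0.11). Psmc6 had the lowest, with 2854 on side B and 2872 on side A (-0.01). Psmc1 had 4151 on side B and 4027 on side A, Psmc3 had 3964 on side B and 3942 on side A, Psmc4 had 1994 on side B and 1955 on side A, and Psmc5 had 4559 on side B and 4451 on side A. All ATPase genes but Psmc2 were thus within 0.05 of equality on the log2 scale.

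The non-ATPase genes of the regulatory particle were split, with 6 higher on side B and 5 lower and a median log2 ratio of 0.01. Over all genes, 50.3% were higher and 48.8% lower. Psmd3 turned to higher with equal sums. Against genes of like length, 1 lay above and 10 below, and the median turned to -0.03. Their summed value was 35825 on side B and 35922 on side A. Psmd4, which encodes a ubiquitin receptor, had 2431 on side B and 2414 on side A (0.01). Psmd14, the enzyme that removes the ubiquitin chain, had 2647 on side B and 2556 on side A (0.05). Psmd2, a large scaffold that also binds ubiquitin, had 8102 on side B and 8234 on side A (-0.02). All 3 genes lay below genes of like length, at -0.08 for Psmd4, -0.01 for Psmd14 and -0.03 for Psmd2 relative to them on the log2 scale.

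At the ends of this group stood Psmd13, a lid subunit, with 2611 on side B and 2497 on side A (0.06), and Psmd1, the other large scaffold, with 6479 on side B and 6721 on side A (-0.05). The lid genes Psmd11 and Psmd12 were also lower on side B, with 1353 on side B and 1394 on side A for Psmd11 and 2516 on side B and 2585 on side A for Psmd12. Psmd3, of the lid too, had 2830 on side B and 2848 on side A. Psmd6 had 2104 on side B and 2029 on side A, Psmd7, the partner of Psmd14, had 2593 on side B and 2504 on side A, and Psmd8 had 2159 on side B and 2140 on side A. With the columns scaled to equal sums, 37 of the 43 members were higher and 6 lower, since Psmc6, Psmd3 and Psme1 turned to higher. That scaling also brought Psmg4 past 25% higher. Exons of Psmb7 overlap those of Nek6, exons of Psmc3 those of Slc39a13 and exons of Psmd13 those of Sirt3, and without a stated strand setting reads of such partners cannot be told apart.

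The chaperones that help to build the regulatory particle all had lower values per kb of transcript than its subunits, on either side. Psmd5 had 1577 on side B and 1562 on side A (0.01) and Psmd9 had 511 on side B and 470 on side A (0.12). Psmd10, also known as gankyrin and the only X-linked member, had 453 on side B and 448 on side A (0.02). Of the 3, Psmd9 alone was past 0.05 on the log2 scale, though not past 1.1-fold.

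Activators and the inhibitor of the core particle included 2 genes higher on side B and 3 lower, of which Psme1 turned to higher with equal sums. The shares over all genes were 50.3% higher and 48.8% lower. Psme1 and Psme2 encode the subunits of an interferon-induced activator and are neighbours on chromosome 14. Psme2 had 1628 on side B and 1445 on side A (0.17), while Psme1 had 1385 on side B and 1396 on side A (-0.01). The partners therefore differed from each other in log2 ratio. Relative to genes of like length, Psme2 lay at 0.03 and Psme1 at -0.13. Psme2 has a near copy, Psme2b, and Psmb5, Psmb6 and Psmb7 have annotated pseudogenes, none of them a row of the table, and the values of these 4 genes are uncertain for that reason. Only copies with a Psm symbol were looked for, so other members may have copies under other names. Psme3, the nuclear activator, had 2273 on side B and 2334 on side A (-0.04). Psme4, a large activator with roles in chromatin, had 1955 on side B and 2062 on side A (-0.08), the lowest ratio among the 43 members. Its transcript is the longest of theirs, at 6491 bases, and relative to genes of like length Psme4 lay at -0.02. Psmf1, which inhibits the core in vitro, had 1493 on side B and 1440 on side A (0.05).

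The assembly factors of the core particle had the highest ratios of the complex. Psmg1 to Psmg4 encode chaperones that guide the alpha ring together. Psmg4 had 129 on side B and 104 on side A (log2 ratio 0.31) and Psmg2 had 529 on side B and 433 on side A (0.29). Psmg1 had 215 on side B and 185 on side A (0.22) and Psmg3 had 357 on side B and 308 on side A (0.21). All 4 were higher by more than any ring subunit, at a median of 0.25. Over all genes 50.3% were higher on side B, and over those of up to 1326 bases 80.4%. With Psmd9 and Psmd10 they also had the 6 lowest values of the 43 members, where a small difference in value gives a larger ratio. Psmc3ip, which matches the name pattern but encodes a meiotic recombination factor and no proteasome subunit, had 23 on side B and 18 on side A.

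Log2 ratios fell with transcript length across the complex and across all genes. Among the 1193 genes of shortest annotated transcript, up to 1326 bases, 80.4% were higher on side B, with a median log2 ratio of 0.13. Among the 1193 of longest transcript, from 6729 bases, 32.1% were higher, with a median of -0.06. Of the 43 members, 18 were of up to 1326 bases and 11 of 1327 to 1825. Across genes, Spearman's rho of transcript length and log2 ratio was -0.31 over 11923 genes and -0.56 over the 43 members, as a description, since these genes share the same 2 columns. Ring subunits had a median transcript of 1163 bases and assembly factors of 964, against 1614 for the ATPases and 1904 for the non-ATPases.

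Set against the median of the 500 genes of like length, most members lay slightly below and not above. The core particle had 7 genes above and 7 below, with a median of 0.0077, and 15 of the 17 ATPase and non-ATPase genes lay below, with a median of -0.03. Among 639 genes within the ranges of length and mean value of the ring subunits, a background chosen after seeing the data, 67.0% were higher on side B and 33.0% lower. All 4 assembly factors still lay above genes of like length, at a median of 0.12. Psma2 and Psma3 lay above theirs by 0.20 and 0.14, but their annotated transcripts of 2911 and 2846 bases are much longer than their coding parts of 702 and 765 bases. By coding length instead, 30 members lay above genes of like length and 13 below, with a median of 0.03.

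**Figure D3:**
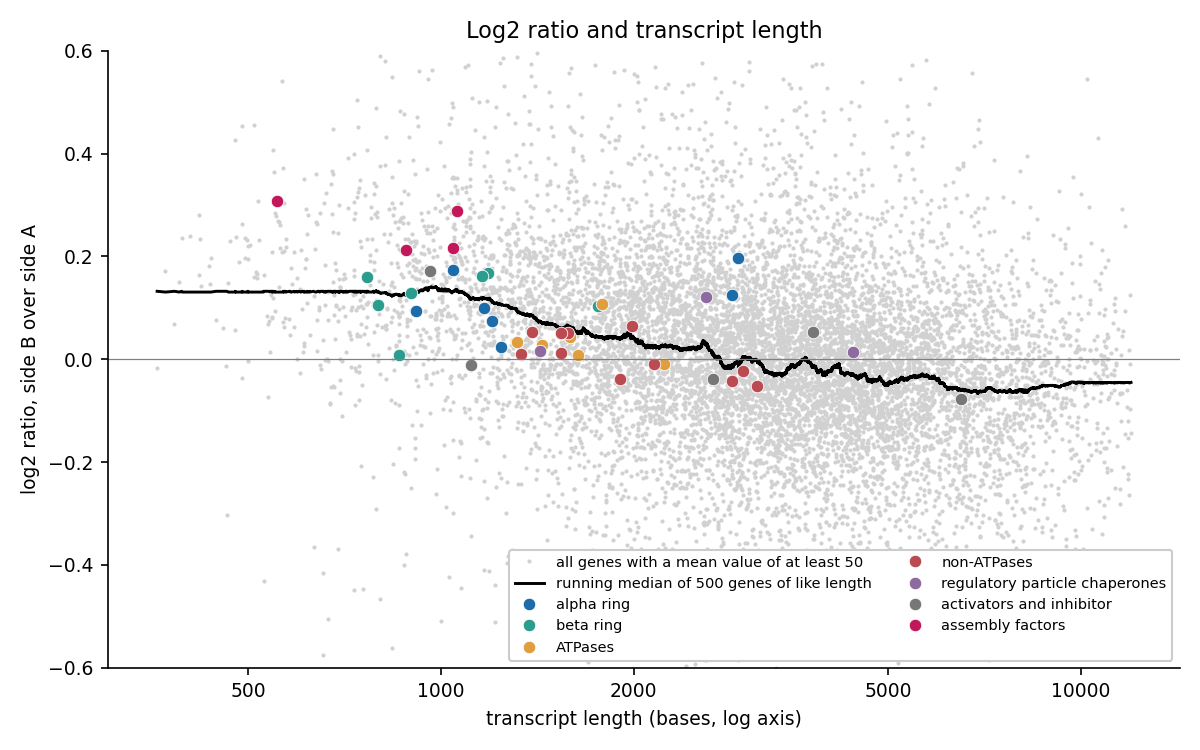
The log2 ratio of side B to side A (vertical axis, cut at -0.6 and 0.6) is plotted against annotated transcript length (log axis), with all genes in grey, their running median of 500 genes as a black line and the proteasome genes in colour by part of the complex. The line falls with length and most coloured points lie near it, with the assembly factors above.

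Subunits of the complex stood well above most genes in level per kb. Over the 31 genes of the core and regulatory particles the median value per kb was 2063 on side B and 1988 on side A, where all genes above the minimum had medians of 201.2 on side B and 201.1 on side A. On side B, 94.3% of those genes lay under the subunit median. The highest levels were those of Psmb7, with 4003 per kb on side B and 3580 on side A, and Psmb6, with 3831 on side B and 3560 on side A. Psmc5 followed at 3464 on side B and 3382 on side A. The order of these 3 was the same on both sides.

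Within the core particle the highest gene exceeded the lowest by 3.87-fold per kb on side B and 3.96-fold on side A, with Psma2 lowest. Divided by coding length, the span on side B was 2.07-fold. The beta ring had a median of 2825 per kb on side B and 2527 on side A, the alpha ring 2093 on side B and 1988 on side A, the ATPases 2243 on side B and 2162 on side A, and the non-ATPases 1517 on side B and 1463 on side A. Psmd11 was the lowest subunit of the regulatory particle, at 475.1 per kb on side B and 489.5 on side A. The assembly factors had a median of only 318.4 per kb on side B and 268.1 on side A. With 1 column per side, which neighbours in this order differ beyond a spread cannot be said.

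**Figure D4:**
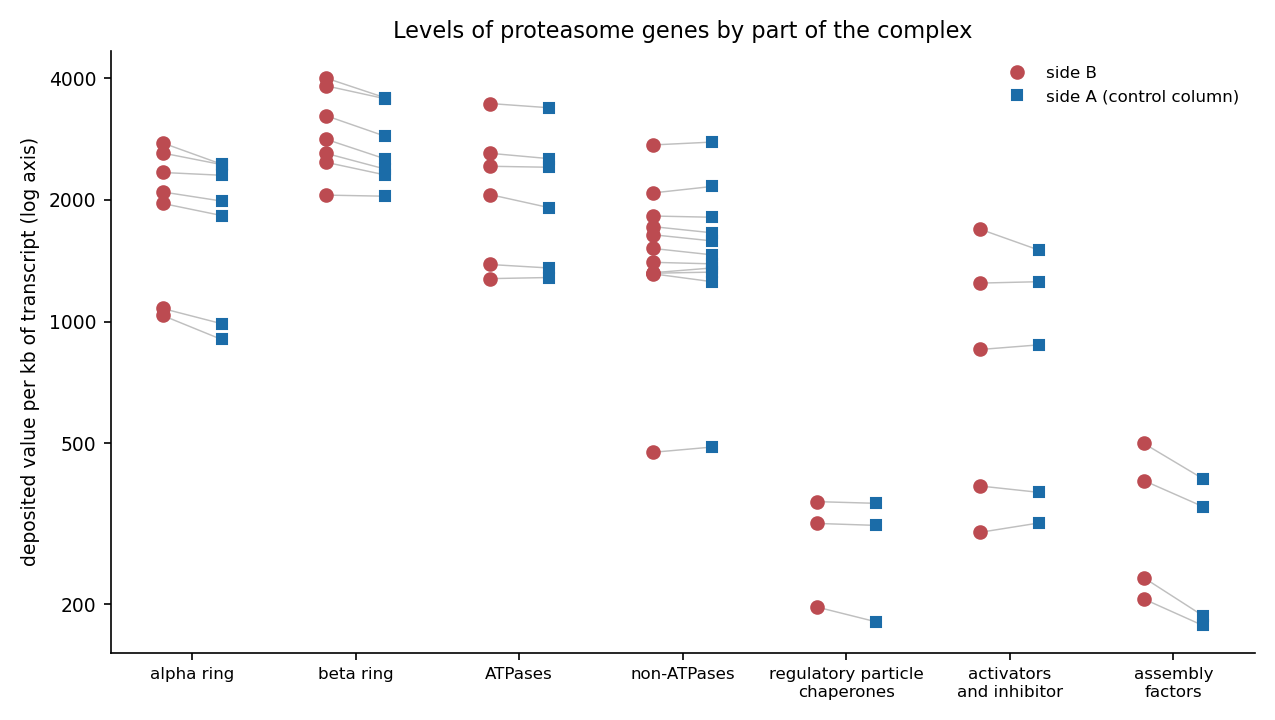
Deposited value per kb of annotated transcript (log axis) of each proteasome gene above the minimum, with side B as red circles left of side A as blue squares and a line joining the values of a gene, 1 column per side without error. Psmb7 is highest, at 4003 on side B, and all chaperones and assembly factors lie under the medians of the ring, ATPase and non-ATPase genes.

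Other genes of the pathway lay on either side of 0 in each list. Over all genes above the minimum, 50.3% were higher on side B and 48.8% lower. Factors that bind or build the proteasome had 6 of 11 genes higher on side B and a median log2 ratio of 0.0040. Zfand5, which binds the proteasome, had 2971 on side B and 2780 on side A (0.10), and the ligase Ube3c had 2297 on side B and 2468 on side A (-0.10). Pomp, the maturation factor of the beta ring, had 2423 on side B and 2328 on side A. Adrm1, the other ubiquitin receptor, had 1842 on side B and 1876 on side A. The deubiquitinase Usp14 had 4309 on side B and 4450 on side A.

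Enzymes that activate and carry ubiquitin had 17 of 26 genes higher and 9 lower, with a median of 0.04, where 50.3% of all genes were higher. Less the median of genes of like length, 16 lay above and 10 below, at a median of 0.02. Cdc34 had 783 on side B and 713 on side A (0.13), and the activating enzyme gene Uba6 had 1128 on side B and 1290 on side A (-0.19). Uba1, the main activating enzyme, had 10942 on side B and 11647 on side A. Shuttles and cofactors of the unfolding enzyme Vcp had 8 of 16 higher, with a median of -0.01 (0.0024 with equal sums), from Ubxn1 at 1511 on side B and 1401 on side A (0.11) to Ubqln2 at 3106 on side B and 3384 on side A (-0.12). Vcp itself had 19409 on side B and 20542 on side A.

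Regulators of the Nfe2l1 pathway spread more widely, with 6 of 11 higher, 5 lower and a median of 0.02, where 50.3% of all genes were higher. Nfe2l1 was abundant and nearly equal, with 13357 on side B and 13642 on side A (-0.03). Nfe2l2, its relative in the oxidative stress response, had 582 on side B and 667 on side A (-0.20). Maff, a small Maf partner of these factors, had 111 on side B and 85 on side A (0.38). Another partner, Mafg, had 690 on side B and 908 on side A (-0.40), and the authors' deposited table gives Mafg an unadjusted p-value of 0.0456 and an adjusted one of 1. The small Maf partners thus lay at both ends of this list.

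Antigen-processing genes included the widest difference of the pathway lists, that of Nlrc5, and the next widest were those of Mafg and Maff, given above. Of the 10, 7 were higher on side B and 3 lower, with a median of 0.09, where 50.3% of all genes were higher. Less the median of genes of like length, 6 lay above and 4 below, at a median of 0.06. Nlrc5, an activator of MHC class I genes, had 276 on side B and 442 on side A (-0.68), with an unadjusted p-value of 0.0113 and an adjusted one of 1 in the authors' deposited table. The peptide transporter genes Tap1 and Tap2 had 723 on side B and 734 on side A and 893 on side B and 934 on side A. The highest ratio of these 10 genes was that of Psmb9, given above.

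**Figure D5:**
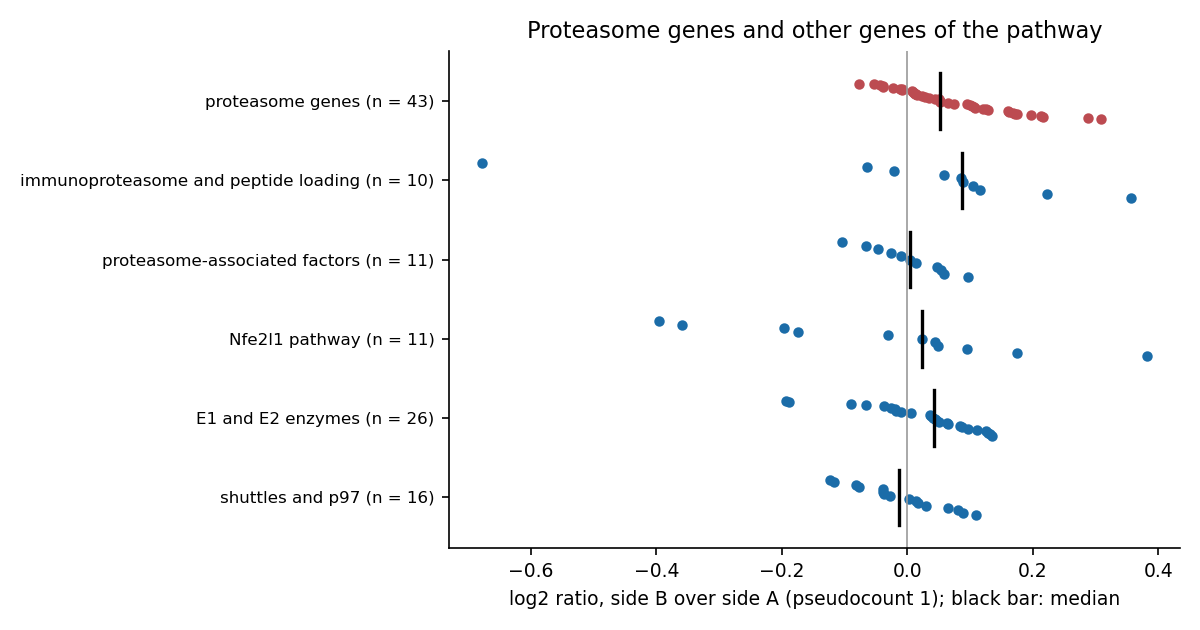
Log2 ratios of side B to side A of the proteasome genes (red) and of other genes of the pathway by list (blue), each point a gene above the minimum and the black bar the median of its list. Medians lie between -0.01 and 0.09 in these lists, and the proteasome genes range from -0.08 to 0.31.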

How the data were processed

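Per the submitters' processing notes, TopHat2 2.0.8, SAMtools 0.1.19, HTSeq 0.5.4p1, DESeq and build mm9 were used. Not given in the sources used here are the annotation, the strand setting and how multiply aligned reads were treated. Per the file headers, which follow DESeq, the authors deposited normalised scores of no stated unit as 1 control column (side A) and 1 second mean (side B). The column headed mutant expression equals their mean in all 21937 rows. The authors' ratio (fold) column equals side B over side A in all 16990 rows that have one, within a relative 1e-09. Their p-value columns are given as the authors deposited them.

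Log2 ratios used a pseudocount of 1 and a minimum mean of 50. Plain counts in each direction are given beside all genes, and no test was made. Depth and counting error are unknown. Transcript and coding lengths came from GENCODE M21 (GRCm38). Transcript lengths covered 99.0% of the genes tested, and coding lengths covered 10772 of the 12043. Like length means the 500 genes nearest in rank of length. Promoters came from RefSeq on GRCm38.p6. Of the members, 12 have exons that overlap another annotated gene, such as Psmb7 with Nek6 and Psmd13 with Sirt3. Python 3.11.15, pandas 2.3.3 and numpy 2.4.6 were used, and the scripts were tested on simulated data.

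Named genes were the catalytic and ubiquitin-handling subunits, the highest and lowest ratio of each group and list, and all other members in short. Members not picked by that rule, and Pomp, Adrm1, Usp14, Uba1, Vcp, Nfe2l1, Nfe2l2, Tap1 and Tap2, were added after values were seen. Named as well are the marker genes and the targeted genes. The members and lists were chosen with earlier results of these data known. Of the genes in the lists of the pathway, Paaf1 found no row, and Ube2d2a and Ufd1 were already listed under another symbol. Bag6 was matched as Bat3. The planned list of ubiquitin genes is not reported here.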

Additional observations from a re-analysis of the deposited data

How the results depend on the processing

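Of 117 values recomputed under alternatives, 98 stayed within the limits set, namely 0.05 on the log2 scale with the same sign, or 1.5 times for counts. The limit of 0.05 is near the member median itself, 0.0521, so a small median could fall near 0 within it. By coding length the non-ATPase median fell from 0.0101 to 0.00035 and stayed within the limit. The share of background genes higher on side B also stayed within it, at 50.3% and 67.0%. Other pseudocounts moved none beyond them. Less the median of genes of like transcript length, 17 members were higher and 26 lower, and the median of the members turned to -0.0198. Under it the medians became -0.0262 for the alpha ring, 0.0199 for the beta ring, -0.0394 for the ATPases, -0.0332 for the non-ATPases and 0.119 for the assembly factors, and, added after seeing the data for the other lists, -0.0059 for the proteasome-associated factors and 0.0793 for the Nfe2l1 pathway. By coding length, also added then, 30 members were higher and 13 lower, with a median of 0.0282. The medians by coding length became 0.0257 for the alpha ring, 0.0540 for the beta ring and 0.175 for the assembly factors. With columns scaled to equal sums, the median turned to 0.0042 for the activators and inhibitor and to 0.0024 for the shuttles, and 1 member, Psmg4, was at least 25% higher. With a minimum of 20, 1 member, Psmc3ip, passed it. A fold of 1.1 gave 10 higher members. The span of the core subunits was 2.07-fold by coding length. Beyond the length values themselves, the cause was not tested.

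No paired analysis was possible because the table has 1 column per side and no column was matched to a sample. Leaving out a replicate was not possible either. Depth limits are unknown, as the values are not known to be counts.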
